A study of Mus musculus with 12 samples.

Results

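The genes described here are 10 markers of simple epithelium and of the change between epithelial and mesenchymal states in the kidney: the simple epithelial keratins Krt7, Krt8, Krt18, Krt19 and Krt20, the intermediate filament gene Vim, and the cadherins Cdh1, Cdh2, Cdh6 and Cdh16. They were chosen by gene symbol, matched through the Ensembl gene identifier, and make up 10 of the 37681 genes in the deposited table. All 10 passed the filter on low counts, as did 19399 genes in all.

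Keratins form filaments only as pairs of a type I and a type II chain. Krt8 (type II) and Krt18 (type I) are the basic pair of simple epithelia, Krt7 and Krt19 are typical of ducts, and Krt20 is known from gut epithelium and the surface cells of the urothelium. Vimentin is the filament protein of mesenchymal cells and also appears in tubule cells that have been injured. Classical cadherins hold neighbouring cells together: Cdh1 (E-cadherin) is the general epithelial member, mouse proximal tubules also carry Cdh2 (N-cadherin) and Cdh6 (K-cadherin), and Cdh16 (Ksp-cadherin) is a kidney-specific cadherin of tubule cells.

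The data are RNAseq counts from a thin outer slice of kidney cortex of 6 male C57BL/6 mice, 18 months old and untreated. The 3 TG+ mice (43-29, 43-49 and 43-75) carried the TRACK transgene (GGT-HIF1aM3, also written gamma-HIF1alphaM3), a constitutively active mutant of HIF1α expressed in proximal tubules, and the 3 TG- mice (43-26, 43-50 and 43-76) were wild-type littermates. The transgene is active in 1 tubule segment, and the slice holds all cells of the cortex. Each mouse gave 2 libraries, 1 from each kidney, which were summed so that the mouse is the replicate.

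The libraries held between 21888584 and 33704850 reads and the mice between 48052131 and 60506785. Levels are normalized CPM, read counts scaled to a common library size with TMM factors, fold changes are TG+ over TG-, and adjusted p-values are from the quasi-likelihood test of edgeR, adjusted over all 19399 genes by the method of Benjamini and Hochberg. The call, taken from the study, asks for an adjusted p under 0.01 and a ratio over 2 or under 0.5. The mouse Hif1a gene itself was at 95.7 CPM in TG+ and 104 CPM in TG- mice (adjusted p = 0.343), while the HIF1α target Ndufa4l2 was at 202 and 3.22 CPM. Markers of the proximal tubule, the main cell type of cortex, were lower in TG+ mice: 9 of 12 passed an adjusted p of 0.05 downward, and their summed level was 16534 to 16746 CPM in TG+ mice and 24083 to 26559 CPM in TG- mice. In bulk tissue, fewer cells of a type and less RNA per cell cannot be told apart.

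The stretch before the transcription start is printed for Krt20 and Cdh6, which rose in TG+ kidneys, and for Krt18, where the hypoxia motif matched. Sequences are RefSeq promoters on GRCm38.p6, 5′ to 3′ on the gene's own strand, with every match to 3 searched motifs in capitals. The motifs were the core of the hypoxia response element that HIF1α binds (ACGTG or GCGTG, both strands), the E-box bound by the Snail and Zeb repressors (CAGGTG, or CACCTG on the other strand), and the TATA box (TATAAA, sense strand). The stretch of Krt20 is chr11:99438154-99438403 on the minus strand, that of Cdh6 is chr15:13173676-13173925 on the minus strand, and that of Krt18 is chr15:102027966-102028179 on the plus strand, cut where the first annotated exon begins.
Krt20: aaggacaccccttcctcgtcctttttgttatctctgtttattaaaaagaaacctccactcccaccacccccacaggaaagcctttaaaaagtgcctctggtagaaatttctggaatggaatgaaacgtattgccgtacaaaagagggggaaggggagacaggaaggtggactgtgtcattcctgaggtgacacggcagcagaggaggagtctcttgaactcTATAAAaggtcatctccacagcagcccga
Cdh6: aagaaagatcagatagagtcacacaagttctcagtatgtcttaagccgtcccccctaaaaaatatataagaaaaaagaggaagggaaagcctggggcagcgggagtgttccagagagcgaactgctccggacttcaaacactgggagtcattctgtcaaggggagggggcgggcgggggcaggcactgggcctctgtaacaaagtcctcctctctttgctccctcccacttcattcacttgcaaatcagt
Krt18: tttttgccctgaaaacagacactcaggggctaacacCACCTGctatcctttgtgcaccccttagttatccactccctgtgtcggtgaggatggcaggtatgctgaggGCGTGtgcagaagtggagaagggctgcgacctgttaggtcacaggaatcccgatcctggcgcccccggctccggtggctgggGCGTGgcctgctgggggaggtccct

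Over the 250 bases before the start, 6 of the 10 members had an entry that was searched (Krt7, Krt8, Krt18, Krt20, Vim and Cdh6). The hypoxia core matched in Krt18 only, at 2 places, where 38.6% of 32851 promoters of the same length hold it. The E-box matched once each in Krt7, Krt8 and Krt18, where 17.2% of promoters hold it. The TATA box matched in Krt20, ending 24 bases before the start, and in Vim, ending 27 bases before it, where 7.59% of promoters hold it. Cdh6 held none of the 3 motifs. In Krt7, Krt8 and Vim the matches lie past the point where an annotated exon of the gene begins. In Krt18 and Krt20 they lie before any annotated exon of the gene. These are matches of letters, not binding sites.

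Of the 10 members, 1 was called higher in TG+ kidneys (Krt19) and 0 lower, where 3.77% of all tested genes were called higher and 0.211% lower. At an adjusted p below 0.05 without a fold limit, 4 rose (Krt19, Krt20, Vim and Cdh6) and 1 fell (Cdh16), where 15.4% of all tested genes rose and 10.9% fell. The other 5 (Krt7, Krt8, Krt18, Cdh1 and Cdh2) did not pass. The same 5 members that passed had TG+ and TG- mice that did not overlap, which held in the upward direction for 23.4% of all tested genes and in the downward direction for 20.8%. The median log2 fold change was 0.34 over the members and 0.01 over all tested genes.

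**Figure D1:**
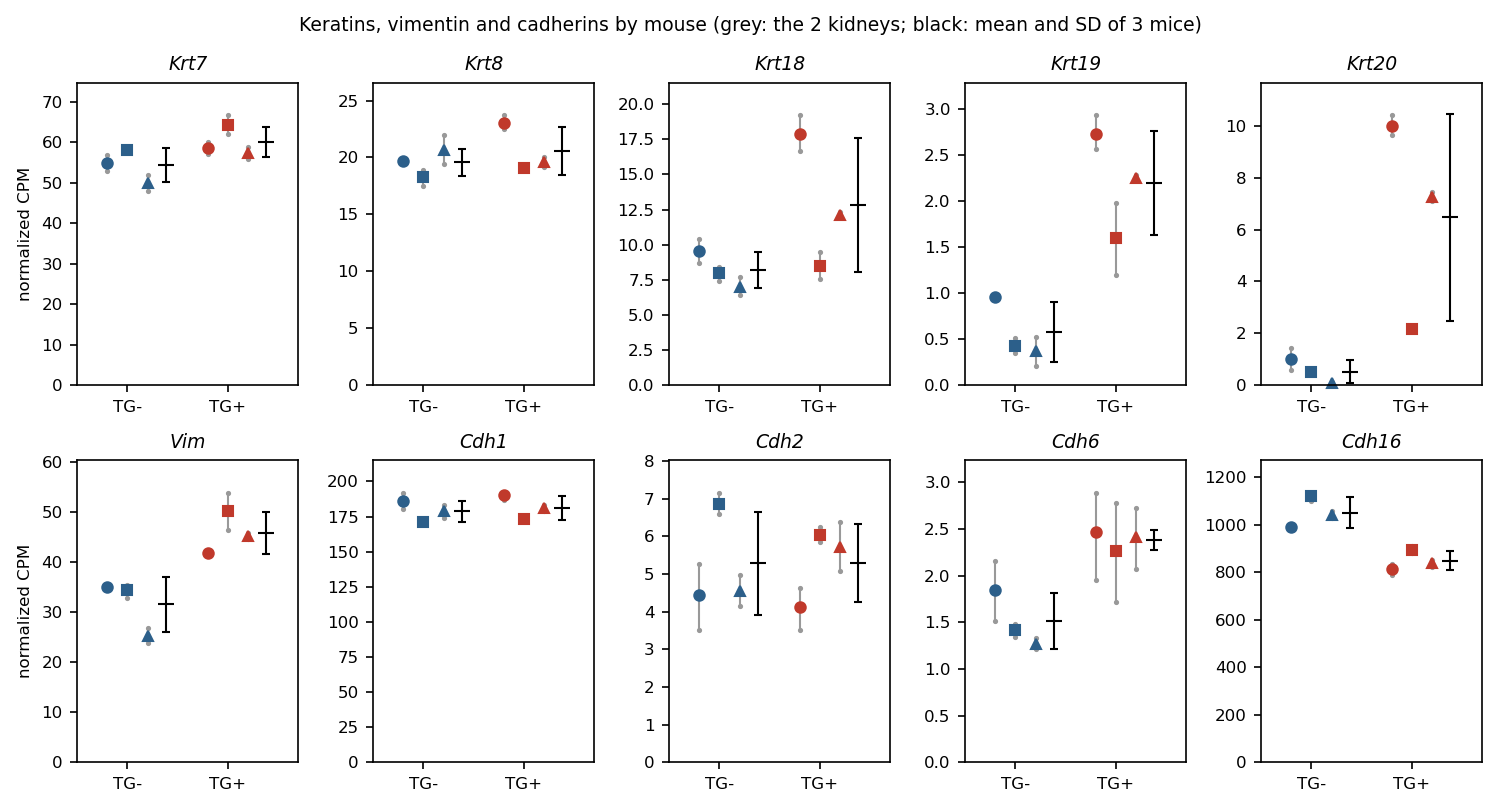
Normalized CPM (vertical axes, each from 0) of the 10 members in TG- (blue) and TG+ (red) mice, with a marker per mouse (circles 43-26 and 43-29, squares 43-50 and 43-49, triangles 43-76 and 43-75), grey points for the 2 kidneys of each mouse, and the mean and SD of 3 mice in black. The groups are apart for Krt19, Krt20, Vim, Cdh6 and Cdh16 and overlap for the other 5.

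Among the type I keratins, Krt20 had the largest fold change of the members. Its level was 9.99, 2.15 and 7.27 CPM in TG+ mice 43-29, 43-49 and 43-75, and 0.994, 0.490 and 0.0819 CPM in TG- mice 43-26, 43-50 and 43-76. No TG- mouse reached the lowest TG+ mouse, but the spread within groups was wide, with 43-49 far below the other TG+ mice and 43-76 far below the other TG- mice. The means were 6.47 ± 3.98 CPM in TG+ and 0.522 ± 0.457 CPM in TG- (SD, n = 3 each), a 12.4-fold ratio of means. The log2 fold change was 3.61 (SE 0.73) with an adjusted p of 0.0101 by edgeR's test, just above the 0.01 limit, so Krt20 was not called. It was called with DESeq2 (adjusted p = 0.00247), without a filter (0.00337), with library size alone (0.00857), with kidney 1 only (0.00457) and without 43-49 (0.0041). A replicate block for the pairs of mice in the name of the deposited table also gave a call (0.00496). Krt20 missed 0.01 with upper-quartile scaling (0.0101), with kidney 2 only (0.0152) and when any other mouse was left out (0.0133 to 0.0386). Its log2 fold change ran from 3.13 without 43-76 to 4.43 without 43-26. The reads behind these levels were few in TG- mice, at 51, 28 and 4 per mouse, against 494, 122 and 365 in TG+ mice. The 4 reads of mouse 43-76 came as 3 and 1 in its kidneys, at or under the 3 reads per library taken here as not detected. Krt20 lies on chromosome 11, 99428403 to 99438150, minus strand (GENCODE M21, GRCm38).

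Krt19, the small keratin of ducts, was the called member. Its level was 2.73, 1.60 and 2.25 CPM in TG+ mice 43-29, 43-49 and 43-75, and 0.955, 0.420 and 0.368 CPM in TG- mice 43-26, 43-50 and 43-76. The lowest TG+ mouse was again 43-49 and the highest TG- mouse again 43-26, and the groups did not overlap. The means of Krt19 were 2.19 ± 0.565 and 0.581 ± 0.325 CPM (SD, n = 3 each), with a log2 fold change of 1.91 (SE 0.37) and an adjusted p of 0.00803 by edgeR's test. Mouse totals of Krt19 ran from 18 to 135 reads, so its level rests on few reads in every TG- mouse. With 1 mouse left out the adjusted p of Krt19 ran from 0.00255 to 0.0322, and the call held only without 43-26 and was lost without any of the other 5 mice. The exact permutation test over mice gave p = 0.1 for Krt19, the smallest that 3 against 3 mice allow. Krt19 lies on chromosome 11, 100140810 to 100148665, minus strand.

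Krt18, the type I partner of Krt8, had a higher mean in TG+ mice that did not pass the test. It stood at 17.9, 8.45 and 12.1 CPM in TG+ mice 43-29, 43-49 and 43-75, and at 9.53, 7.98 and 7.02 CPM in TG- mice 43-26, 43-50 and 43-76. The groups of Krt18 overlapped because 43-49 lay below TG- mouse 43-26. The log2 fold change of Krt18 was 0.65 (SE 0.25) with an adjusted p of 0.0976 by edgeR's test, 0.0288 with DESeq2 and 0.0194 without 43-49. With a replicate block for the pairs of mice in the name of the deposited table it was 0.0356. Without 43-29, the highest mouse, the log2 fold change of Krt18 was 0.32 with an adjusted p of 0.269, and leaving out any of the other 4 mice gave adjusted p-values from 0.104 to 0.248. Krt18 lies on chromosome 15, 102028180 to 102032027, plus strand.

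The order of the TG+ mice was the same for Krt18, Krt19 and Krt20, with 43-29 highest, then 43-75, then 43-49. The TG- mice also had the same order for Krt18 and Krt20 and for Krt19, with 43-26 highest, then 43-50, then 43-76. The injury marker Havcr1 (kidney injury molecule 1) had this order too, at 26.0, 12.5 and 22.5 CPM in TG+ mice 43-29, 43-49 and 43-75 and at 5.07, 2.96 and 0.798 CPM in TG- mice 43-26, 43-50 and 43-76. The 10 tubule injury markers together summed to 1438, 1170 and 1291 CPM in TG+ mice 43-29, 43-49 and 43-75, and to 1094, 1152 and 963 CPM in TG- mice 43-26, 43-50 and 43-76, which is not the keratins' order in TG- mice. Of these markers 5 rose at an adjusted p below 0.05 and 0 fell. Markers of the epididymis, listed because earlier results of these data named such genes, summed to 66.1, 27.4 and 50.0 CPM in the TG+ mice in the same order of mice and to 1.21 to 1.89 CPM in TG- mice, although Lcn8 and Lcn9 were at 0 reads. The part of these markers in the keratin levels was not tested.

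The type II keratins did not pass the test. Krt7, a keratin of ducts and collecting tubules, was at 58.7, 64.2 and 57.4 CPM in TG+ mice and at 55.0, 58.2 and 49.9 CPM in TG- mice, with a log2 fold change of 0.14 (SE 0.07) and an adjusted p of 0.186 by edgeR's test. Krt8, the type II partner of Krt18, was at 23.0, 19.1 and 19.6 CPM in TG+ mice and at 19.7, 18.3 and 20.7 CPM in TG- mice, with a log2 fold change of 0.08 (SE 0.09) and an adjusted p of 0.578. The groups of both genes overlapped, and the counting did not say how reads were assigned by strand. Krt7 overlaps an antisense gene and Krt8 lies opposite a noncoding gene and has a named pseudogene, so their levels are uncertain to that extent. Krt7 lies on chromosome 15, 101411043 to 101430313, plus strand, and Krt8 on chromosome 15, 101996698 to 102004482, minus strand.

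The makeup of the keratin mRNA, on the per-length scale of the deposited RPKM, differed among mice mainly in its type I part. The type II sum, Krt7 and Krt8, was 18.7, 17.3 and 16.9 RPKM in TG+ mice 43-29, 43-49 and 43-75, and 17.0, 16.5 and 17.1 RPKM in TG- mice 43-26, 43-50 and 43-76. The type I sum, Krt18, Krt19 and Krt20, was 18.7, 7.67 and 13.2 RPKM in the TG+ mice and 7.82, 6.18 and 5.32 RPKM in the TG- mice. The ratio of type I to type II was 0.996, 0.444 and 0.779 in TG+ mice against 0.46, 0.375 and 0.312 in TG- mice, so 43-49 lay within the TG- range and the other TG+ mice above it.

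Krt20 made up 13.7%, 4.48% and 12.5% of the keratin RPKM in TG+ mice 43-29, 43-49 and 43-75 and 2.21%, 1.22% and 0.287% in TG- mice 43-26, 43-50 and 43-76. The lengths behind the deposited RPKM did not match the annotated transcripts for every gene: for Krt7 the implied length was 9320 bases and the longest coding transcript of GENCODE M21 was 4094 bases. With CPM per kb of the longest coding transcript instead, chosen after the values were seen, the mean share of Krt20 was 8.25% in TG+ and 0.887% in TG- mice in place of 10.2% and 1.24%. The mean share of Krt7 moved from 21.3% to 38.5% in TG+ mice and from 25.3% to 44.9% in TG- mice, so which keratin is the most abundant depends on the length used.

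**Figure D2:**
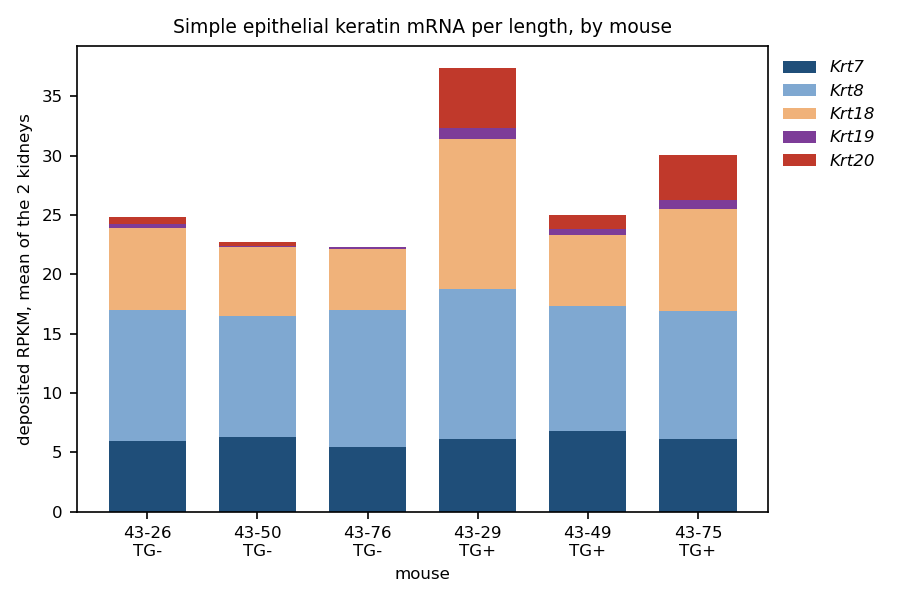
Deposited RPKM (vertical axis, from 0, mean of the 2 kidneys) of the 5 simple epithelial keratins stacked for each of the 6 mice (horizontal axis). The type II chains Krt7 and Krt8 sum to 16.5 to 18.7 in all mice, and the type I part is largest in TG+ mice 43-29 and 43-75.

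Vim, the mesenchymal filament gene, was higher in TG+ kidneys. Its level was 41.9, 50.2 and 45.3 CPM in TG+ mice 43-29, 43-49 and 43-75, and 35.1, 34.4 and 25.3 CPM in TG- mice 43-26, 43-50 and 43-76. The groups did not overlap, and among TG+ mice the order was the reverse of that of Krt18, Krt19 and Krt20, with 43-49 highest and 43-29 lowest. The means of Vim were 45.8 ± 4.21 and 31.6 ± 5.45 CPM (SD, n = 3 each), a 1.45-fold ratio, with a log2 fold change of 0.54 (SE 0.13) and an adjusted p of 0.0196 by edgeR's test. Without 43-49 that adjusted p was 0.0544 and without 43-75 it was 0.0535. Vim lies on chromosome 2, 13573927 to 13582826, plus strand.

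Several cell types that carry vimentin mRNA were also at higher marker levels in TG+ mice. Fibroblast and pericyte markers summed to 291, 367 and 397 CPM in TG+ mice 43-29, 43-49 and 43-75 and to 185 to 219 CPM in TG- mice, with 6 of 10 rising at an adjusted p below 0.05 and 0 falling. All 8 endothelial markers rose, and they summed to 670 to 719 CPM in TG+ and 383 to 499 CPM in TG- mice. Immune markers summed to 125 to 128 CPM in TG+ and 75.5 to 80.3 CPM in TG- mice, with 6 of 7 rising. Their part in the level of Vim was not tested.

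Cdh16, the kidney-specific cadherin, had the highest level per length and was the member that fell. Its level was 815, 893 and 838 CPM in TG+ mice 43-29, 43-49 and 43-75, and 990, 1121 and 1043 CPM in TG- mice 43-26, 43-50 and 43-76. Every TG+ mouse lay below every TG- mouse, and so did every single library. The means of Cdh16 were 848 ± 40.0 and 1051 ± 66.1 CPM (SD, n = 3 each), with a log2 fold change of -0.31 (SE 0.07) and an adjusted p of 0.0125 by edgeR's test. With scaling by library size alone, where the median of all genes moved from 0.01 to 0.13, Cdh16 was at -0.19 with an adjusted p of 0.0627, and relative to that median at -0.32 under both scalings. Cdh16 lies on chromosome 8, 104601911 to 104624396, minus strand.

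Cdh6, a cadherin of the proximal tubule, rose from a low level. It was at 2.47, 2.27 and 2.41 CPM in TG+ mice 43-29, 43-49 and 43-75, and at 1.85, 1.42 and 1.27 CPM in TG- mice 43-26, 43-50 and 43-76. The TG+ mice were close to each other and above every TG- mouse, but single libraries of Cdh6 overlapped, since the 2 kidneys of a mouse differed by 1.09-fold to 1.62-fold. The log2 fold change of Cdh6 was 0.65 (SE 0.17) with an adjusted p of 0.0262 by edgeR's test, and it missed 0.05 without 43-50, 43-76, 43-29 or 43-75 (0.068 to 0.0872) and with either kidney alone (0.115 and 0.0688). Cdh6 lies on chromosome 15, 13028701 to 13173675, minus strand.

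Cdh1 and Cdh2 had near-equal means in both groups. Cdh1 (E-cadherin) was at 190, 173 and 181 CPM in TG+ mice and at 186, 171 and 179 CPM in TG- mice, with a log2 fold change of 0.02 (SE 0.06) and an adjusted p of 0.802 by edgeR's test. Cdh2 (N-cadherin) was at 4.12, 6.03 and 5.72 CPM in TG+ mice and at 4.43, 6.85 and 4.56 CPM in TG- mice, with means of 5.29 ± 1.02 and 5.28 ± 1.36 CPM (SD, n = 3 each) and an adjusted p of 0.995. The groups overlapped for both, and the sign of the small difference changed with the mouse left out. The SE of the log2 fold change was 0.21 for Cdh2 and 0.06 for Cdh1, so the difference of Cdh2 is the less precisely known. Cdh1 lies on chromosome 8, 106603351 to 106670246, plus strand, and Cdh2 on chromosome 18.

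**Figure D3:**
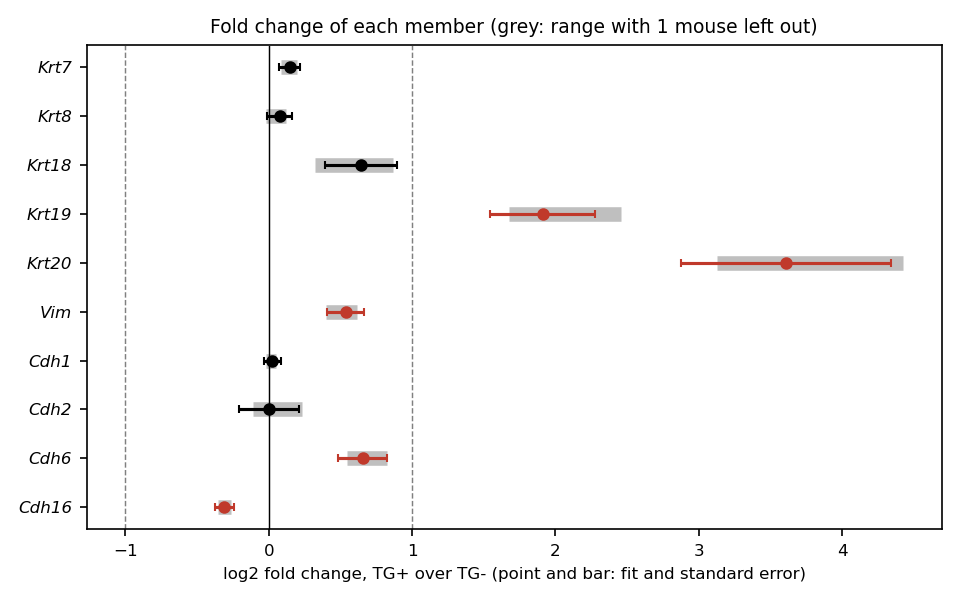
Log2 fold change of each member, TG+ over TG- (horizontal axis), as a point with its standard error, red where the adjusted p was below 0.05, with the range of values when 1 mouse was left out in grey and dashed lines at a 2-fold change. Krt20 (3.61) and Krt19 (1.91) lie past the upper dashed line, Cdh16 (-0.31) lies below 0, and Krt7, Krt8, Cdh1 and Cdh2 lie near 0.

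Ratios of reads of 2 members within a mouse do not depend on library scaling, and 7 were compared with an exact 2-sided permutation test whose smallest p is 0.1. Cdh6 over Cdh16 was higher in every TG+ mouse than in every TG- mouse, with means 0.98 apart on the log2 scale (exact p = 0.1, adjusted over the 7 ratios 0.233), with 0.303, 0.255 and 0.288 reads of Cdh6 per 100 reads of Cdh16 in TG+ mice and 0.187, 0.126 and 0.122 in TG- mice. Vim over Cdh1, often read as mesenchymal over epithelial, had a mean 0.52 higher in TG+ mice, with no overlap between the groups (exact p = 0.1, adjusted 0.233). Krt19 over Krt18 was higher by 1.43 (exact p = 0.1, adjusted 0.233), again with no overlap. Cdh2 over Cdh1 differed by -0.01 (exact p = 1), and Vim over Krt18 by -0.05 (exact p = 1), with overlapping groups. Cdh2 over Cdh1 is often read as a switch from E- to N-cadherin. Mouse proximal tubules also carry Cdh2, so in cortex the ratio does not measure such a switch alone. Krt8 over Krt18 differed by -0.52 (exact p = 0.2, adjusted 0.35) and Krt7 over Krt8 by 0.07 (exact p = 0.7, adjusted 0.98), with overlapping groups.

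On the per-length scale of the deposited RPKM, Cdh16 stood highest in TG- mice at 124.0 ± 7.61 (SD, n = 3), followed by Cdh1 at 21.4 ± 0.933 and Krt8 at 10.2 to 11.6 over its 3 mice. Krt18 at 5.93 ± 0.924, Krt7 at 5.9 ± 0.448 and Vim at 5.08 ± 0.864 came next and did not differ beyond their spread. Cdh6 at 0.594 ± 0.115, Cdh2 at 0.449 ± 0.116, Krt20 at 0.297 ± 0.243 and Krt19 at 0.214 ± 0.111 were lowest, with neighbours within their spread. In TG+ mice Krt20 stood at 3.33 ± 2.04, above Cdh6 at 0.897 ± 0.0381, Krt19 at 0.747 ± 0.195 and Cdh2 at 0.438 ± 0.0884. The implied lengths were 2.87 times the longest coding transcript for Vim, 2.93 times for Cdh16 and 0.317 times for Cdh6, so this order holds for the deposited scale. Per kb of the longest coding transcript, Krt7 (13.3 CPM per kb) and Vim (14.4 CPM per kb) stood above Krt8 (9.99 CPM per kb) in TG- mice.

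The kidneys of a mouse differed most in members with few reads. The larger kidney value was at most 1.13 times the smaller for Krt7, Krt8, Cdh1 and Cdh16 and at most 1.26 times for Krt18 and Vim. It reached 2.53 times for Krt19 and 2.92 times for Krt20, both with few reads in TG- libraries. For Krt19, Krt20, Vim and Cdh16 the 6 TG+ libraries were nevertheless all apart from the 6 TG- libraries. The share of all tested genes for which this holds was not computed. The kidneys of a mouse are not independent replicates.

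The genes whose pattern over the 6 mice was most like that of Krt19, by the root mean square difference of centred log2 CPM among 16169 genes, were Bmp3 (0.23), 1110032F04Rik (0.27) and Myc (0.27). Bmp3 encodes a bone morphogenetic protein and Myc a growth-promoting transcription factor. Myc was at 35.5, 25.4 and 33.8 CPM in TG+ mice 43-29, 43-49 and 43-75 and at 14.0, 7.91 and 3.77 CPM in TG- mice 43-26, 43-50 and 43-76, the same order of mice within each group as Krt19. The nearer genes did not keep that order. Bmp3 was higher in 43-76 (1.29 CPM) than in 43-50 (1.09 CPM), and 1110032F04Rik was higher in 43-75 (4.08 CPM) than in 43-29 (3.54 CPM). Likeness to Krt19 was what the search selected for.

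Most other keratins had few or no reads in these kidneys. Of 49 other keratin genes in the table, 32 had at most 3 reads in every library, among them 14 with 0 reads, and 4 passed the filter. Of those 4, 0 were called and Krt10, an epidermal type I keratin named after its value was seen, was lower, at 5.78 ± 0.646 CPM in TG+ and 7.95 ± 0.367 CPM in TG- mice (log2 fold change -0.46, adjusted p = 0.0158 by edgeR's test). The most reads fell on Krt80, at 16.0 CPM in TG+ and 14.5 CPM in TG- mice (adjusted p = 0.235). Markers of urothelium, whose surface cells carry Krt20, summed to 1.33 to 2.11 CPM in TG+ and 1.66 to 1.79 CPM in TG- mice, with Krt5 at 0.0444 and 0.104 CPM. TG- mouse 43-26 stood apart with 2.32 CPM of Krt13 and 2.03 CPM of Krt4, keratins of stratified mucosa, where the other 5 mice had at most 0.259 and 0.0797 CPM. A single TG- library held 118 of the 142 reads of Krt13 and 104 of the 113 reads of Krt4 in all libraries. These values thus come from a single kidney and are not a trait of the mouse.

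Among 15 other intermediate filament genes and their linker, 12 were tested and 0 were called. At an adjusted p below 0.05, 4 rose and 0 fell: Des (desmin, log2 fold change 0.51), Nes (nestin, 0.41), Synm (synemin, 0.74) and Plec (the linker plectin, 0.41, the one with the most reads, at 147 CPM in TG+ and 110 CPM in TG- mice). Nestin, desmin and synemin are filament partners of vimentin, and the median of the list was 0.33. The fibroblast, pericyte and endothelial markers given beside Vim were higher in the same mice, as were 2 of 5 podocyte markers, and their part in these levels was not tested.

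Of 9 tested desmosome genes, which anchor keratin filaments at cell contacts, 0 were called and 1 passed an adjusted p of 0.05. This was Pkp4, a plakophilin-related catenin and the gene with the most reads of the list, which fell from 459 ± 23.0 CPM in TG- to 331 ± 11.4 CPM in TG+ mice (log2 fold change -0.47, adjusted p = 0.00127 by edgeR's test). Of 9 adherens junction genes, which link cadherins to actin, 0 were called, Vcl (vinculin, 0.39) rose, and Afdn (afadin, -0.16) and Nectin3 (-0.17) fell at an adjusted p below 0.05. Ctnnb1 (beta-catenin), the cadherin partner and the one with the most reads, was at 606 ± 35.4 CPM in TG+ and 598 ± 16.4 CPM in TG- mice (adjusted p = 0.845).

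Of 17 tight junction genes, 1 was called, Cldn3 (claudin 3, a barrier-forming claudin), at 5.83 ± 0.616 CPM in TG+ and 2.52 ± 0.240 CPM in TG- mice (log2 fold change 1.20, adjusted p = 0.000646 by edgeR's test). At an adjusted p below 0.05, Cldn1 (0.68) and Tjp1 (0.27) also rose. Cldn2, the pore claudin of the proximal tubule and the one with the most reads, fell from 899 ± 14.9 to 685 ± 14.2 CPM (-0.39), and Cldn12 fell by 0.34 on the log2 scale. The median of the list was 0.08.

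Of 19 other cadherin genes, 9 were tested, 2 were called and 5 rose at an adjusted p below 0.05, with 0 falling. The called genes were at low levels: Cdh23 at 0.987 and 0.150 CPM and Cdh20 at 0.354 and 0.0555 CPM in TG+ and TG- mice. No TG- library held more than 8 reads of Cdh23 or more than 3 reads of Cdh20, so Cdh20 counts as not detected in TG- mice, and a gene this low in TG- mice can pass the filter only through the TG+ mice. Cdh5 (VE-cadherin, also among the endothelial markers), the one with the most reads, was at 47.6 ± 0.438 and 31.1 ± 5.21 CPM (log2 fold change 0.62, adjusted p = 0.00653 by edgeR's test). Cdh11 (0.50), a cadherin of mesenchymal cells, and Cdh13 (0.75), known from vessels, were the others.

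Transcription factors that drive or oppose the epithelial state were counted from 2 lists. Of 9 factors of the epithelial-to-mesenchymal transition, 4 rose at an adjusted p below 0.05: Snai1 (log2 fold change 0.67), Twist2 (1.36), Zeb1 (0.50) and Zeb2 (0.30), the last with the most reads, at 59.6 CPM in TG+ and 48.5 CPM in TG- mice. Twist2 was at a low level, 0.495 CPM in TG+ and 0.189 CPM in TG- mice. No TG- library held more than 9 reads of it, so its fold change rests on few reads. Snai3 was called lower, at 0.402 ± 0.0561 and 0.876 ± 0.146 CPM (log2 fold change -1.11, adjusted p = 0.00896 by edgeR's test). The median of the list was 0.63. Markers of fibroblasts, endothelium and immune cells, which carry mRNA of Zeb and Twist factors, were higher in the same mice (values given beside Vim), and their part in these levels was not tested. Of 13 epithelial regulators, 1 was called, Elf3, an epithelial ETS factor, which was at 31.3, 31.0 and 32.3 CPM in TG+ mice and 12.8, 13.2 and 13.4 CPM in TG- mice, with a log2 fold change of 1.26. Esrp1, a splicing regulator of epithelia, also rose (0.39). Genes named in these lists other than the called ones and those with the most reads were chosen after their values were seen.

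**Figure D4:**
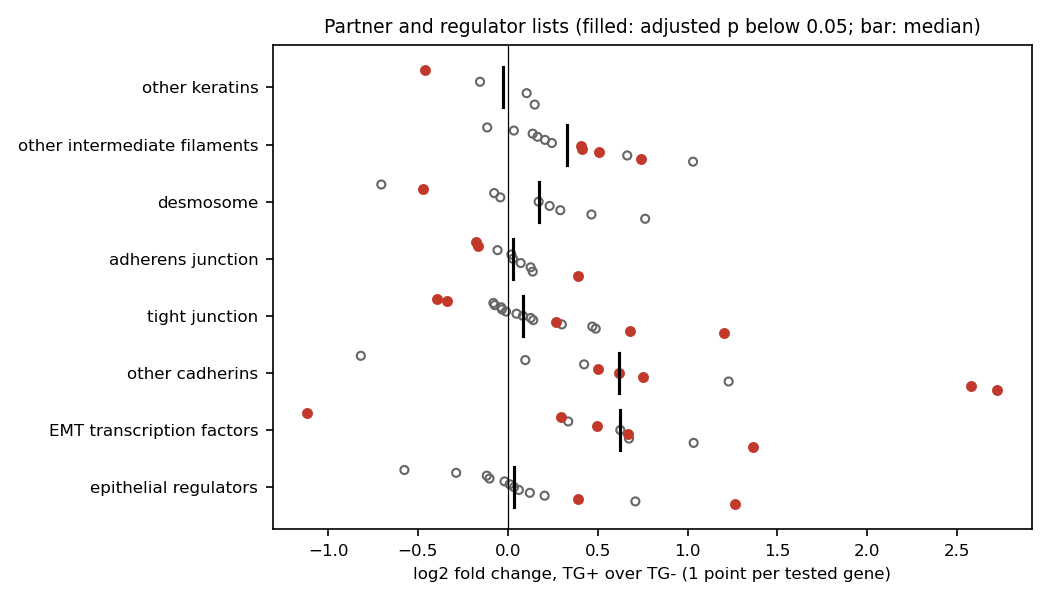
Log2 fold change, TG+ over TG- (horizontal axis), of every tested gene of the 8 partner and regulator lists (vertical axis), 1 point per gene, filled red where the adjusted p was below 0.05, with the list median as a bar. Medians run from -0.02 for other keratins to 0.63 for transcription factors of the epithelial-to-mesenchymal transition.

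Markers of other parts of the nephron give the setting of these values. Collecting duct markers, from a segment rich in Krt7, Krt8, Krt18 and Krt19, summed to 759 to 798 CPM in TG+ and 669 to 714 CPM in TG- mice, with 1 of 12 rising and 1 falling at an adjusted p below 0.05. Markers of the loop and distal tubule summed to 3384 to 4705 CPM in TG+ and 3744 to 3875 CPM in TG- mice, with 0 of 6 passing. Podocyte markers summed to 542 to 631 CPM in TG+ and 412 to 495 CPM in TG- mice, with 2 of 5 rising. Markers of mesothelium, a covering layer that carries Krt19 and Vim, summed to 0.344 to 2.23 CPM in TG+ and 0.102 to 1.07 CPM in TG- mice, with 0 of 3 passing. The part of these markers in the members' levels was not tested.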

How the data were processed

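RNA was extracted from kidney cortex of 3 TG+ and 3 TG- mice, 2 kidneys each, with mini-RNAeasy columns. Libraries were made with a TruSeq RNA kit and sequenced as 51-bp single-end reads, which the authors analysed mainly with the Tuxedo tools. The submitters' processing notes name the build mm9. The annotation release, strand handling and counting program are not given in the sources used here.

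The authors deposited read counts per gene for 12 libraries, without normalization, and RPKM values, which were proportional to the count plus 1 in 100% of genes (tolerance 0.1%). The authors' columns of log2 RPKM, fold changes, tests and q-values were not used. Counts of the 2 kidneys were summed per mouse, filtered with filterByExpr, normalized by TMM (factors 0.9442 to 1.065) and tested with edgeR 4.0.16 (limma 3.58.1, R 4.3.3). Ratios were tested by an exact permutation test over 20 assignments. The procedure was tested on simulated data. Intervals for counting error were not computed. Symbols and positions came from GENCODE M21 (GRCm38) by Ensembl identifier, with 32642 of 37681 genes matched, and promoters from RefSeq (GRCm38.p6).

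All 10 members are named. From each pathway list (not the cell type markers), and from the other keratins and cadherins, the called genes (at most 5, by absolute log2 fold change) and the gene with the highest mean level are named, and for the called member the 3 genes nearest in pattern among those with a mean of at least 1 CPM. A gene that this rule selects is not reported here. Cell type markers are given as sums and counts, except Havcr1, Krt5, Lcn8 and Lcn9, which, like Krt4, Krt13, Hif1a and Ndufa4l2, lie outside the rule and were chosen after their values were seen. Members and lists were chosen with earlier results of these data known. Alternatives were DESeq2 1.42.0, upper-quartile scaling, library size alone, no filter, each kidney as its own library, either kidney alone, a replicate block, an adjusted p limit of 0.05, and leaving out each mouse.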

Additional observations from a re-analysis of the deposited data

How the results depend on the processing

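Krt19 and Krt20 kept their direction and an adjusted p below 0.05 under all 14 alternatives, with log2 fold changes of 1.68 to 2.46 for Krt19 and 3.13 to 4.43 for Krt20. The number of members called was 2 (Krt19 and Krt20) with DESeq2, with library size alone, without a filter, with each kidney as its own library, with kidney 1 only and with the adjusted p limit of 0.05, 0 with kidney 2 only, and 0 to 1 when a mouse was left out (0 without 43-50, 43-76, 43-29 or 43-75, Krt20 alone without 43-49). The number higher at an adjusted p below 0.05 was 2 to 4 when a mouse was left out (2 without 43-75). It reached 6 only with each kidney as its own library. The number lower was 0 with library size alone. Small differences changed sign: Krt8 (-0.0221 to 0.12 with a mouse left out), Cdh1 (-0.0188 to 0.053) and Cdh2 (-0.11 to 0.23, -0.0105 with DESeq2, -0.0102 with upper-quartile scaling, -0.0031 without a filter, -0.21 with kidney 1 only). So did the log2 ratios Krt7 over Krt8 (-0.0293 to 0.17 with a mouse left out), Vim over Krt18 (-0.38 to 0.29) and Cdh2 over Cdh1 (-0.15 to 0.22, and 0.24 with kidney 2 only). Krt7 passed 0.05 with library size alone (adjusted p = 0.0354), where its log2 fold change relative to the median of all genes was 0.13, as with TMM. With each kidney as its own library, Krt7 (0.0358) and Krt18 (0.013) passed. That setting counts the kidneys of a mouse as separate replicates, so it has more replicates than mice and its p-values are too small. The cause of the other changes was not tested.

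The name of the deposited table lists 3 pairs of mice (43-49 with 43-50, 43-29 with 43-26, 43-75 with 43-76). Deviations from the group means correlated by 0.298, 0.345 and -0.0186 within these pairs over 19399 genes. The values of 0.298 and 0.345 were higher than any between mice of different pairs, where the highest was 0.0268. Mouse 43-75 was near 0 with every TG- mouse (-0.0186 to 0.0206). The labels give no pairing, so the main fit had no block, and these values do not settle whether the mice were paired. With the pairs as a replicate block, 2 members were called (Krt19 and Krt20, the latter with an adjusted p of 0.00496), and Krt18 had an adjusted p of 0.0356.

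Depth limits Krt19, Krt20 and Cdh6, whose TG- mice held 4 to 95 reads.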
